A study of Mus musculus with 8 samples.

Results

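The matrix metalloproteinase genes Mmp2, Mmp3, Mmp9, Mmp10, Mmp11, Mmp13, Mmp14, Mmp15, Mmp19 and Mmp23 were followed in cultured mouse cells for 72 h after c-Src was switched on. They were taken by gene name from the array, which gave 10 genes with 11 probes, of 36095 genes and 55681 probes in all. The cells were mouse embryonic fibroblasts (MEFs), connective tissue cells grown from embryos, that lacked Csk (Csk-/-), the kinase that holds Src family kinases in check. All 4 groups shared this deletion and carried pBKT2-c-Src, a vector that makes c-Src when doxycycline is added, here at 1 µg/ml. The groups differed in hours of induction, 0, 6, 24 and 72 h, with 2 arrays each and 8 in all. The labels give the pair of arrays at a time as duplicates and name no separate cultures, so the p-values rest on array-to-array spread that may be no more than technical. There was no doxycycline-treated group without the vector, and time followed the row of the slide. Effects of c-Src, of doxycycline, of time in culture and of slide row therefore cannot be told apart.

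Matrix metalloproteinases are zinc-dependent enzymes that cut proteins of the extracellular matrix and of the cell surface. They are made as inactive proenzymes, are switched on by removal of a prodomain, and are held back by tissue inhibitors (TIMPs) and by Reck. Fibroblasts are a main source of several of them, and genes of the stromelysins and of collagenase 3 are known targets of growth factor and oncogene signalling through AP-1 (dimers of Fos and Jun proteins) and Ets factors.

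In these data Mmp10, Mmp3 and Mmp13 rose together by 6 h, were highest at 24 h, at 14.4-fold, 8.91-fold and 5.04-fold their 0 h level, and had fallen again by 72 h. Mmp19 was highest at 72 h, Mmp14 rose slightly, and Mmp11 and Mmp15 fell. Mmp23 was low at 24 h alone, Mmp2 passed the test in no comparison, and Mmp9 was well above background on 0 of 8 arrays.

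The promoter sequences of Mmp13, Mmp3 and Mmp10 are shown because these genes lie near each other on chromosome 9 and moved together. Each line gives the 100 bases before the annotated start of the gene, 5′ to 3′ on the gene's strand, from RefSeq on GRCm38.p6. Capitals mark the AP-1 motif TGACTCA or its reverse complement TGAGTCA, and the TATA box TATAAA. The positions are chr9:7272414-7272513 for Mmp13, chr9:7445722-7445821 for Mmp3 and chr9:7502242-7502341 for Mmp10, all on the + strand.
Mmp13: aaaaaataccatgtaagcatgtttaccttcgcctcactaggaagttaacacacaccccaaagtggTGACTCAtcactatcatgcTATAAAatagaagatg
Mmp3: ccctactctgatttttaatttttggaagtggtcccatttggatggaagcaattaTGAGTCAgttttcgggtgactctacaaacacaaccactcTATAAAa
Mmp10: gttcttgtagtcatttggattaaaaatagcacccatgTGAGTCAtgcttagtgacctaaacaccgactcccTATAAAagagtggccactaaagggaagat

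Each of these 3 promoters held 1 AP-1 motif and 1 TATA box within those 100 bases. The AP-1 letters lay at -35 to -29 in Mmp13, at -46 to -40 in Mmp3 and at -63 to -57 in Mmp10, counted back from the annotated start. Over 32851 mouse promoters, 1.88% held the AP-1 letters on either strand in the same 100 bases, 3.8% held TATAAA on the gene's strand, and 0.116% (38 promoters) held both. The Ets-type motif AGGAAG, searched on both strands in the 250 bases before the start, occurred 2 times for Mmp13, 1 time for Mmp3 and 1 time for Mmp14, and 29.5% of all promoters had it. The search covered 7 of the 10 genes, and Mmp2, Mmp9 and Mmp19 had no entry. Mmp11, Mmp14, Mmp15 and both Mmp23 promoters had neither TGACTCA nor TATAAA in their 250 bases. Mmp8, a neighbour on chromosome 9 outside the 10 genes, was searched too. It also had neither, with 1 AGGAAG, and its signal too was highest at 24 h. Mmp12, Mmp1b, Mmp1a, Mmp27, Mmp20 and Mmp7, which lie near these genes and were not well above background, were not searched. Whether their promoters hold the same letters is therefore not known. The share over all promoters is no test of the 3, which are neighbours of 1 family picked because they moved together. No motif overlapped another, and a match is a description of letters, not evidence of a bound factor.

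Signals below are processed intensities scaled so that the 75th percentile of each array sits at the same value (380). Log2 differences compare the mean of 2 arrays with the mean of 2 arrays, and their adjusted p comes from limma with Benjamini-Hochberg adjustment over 20839 genes. A gene counts as called, that is as having risen or fallen, at an adjusted p under 0.05. An exact permutation test of 2 arrays against 2 cannot go below a two-sided p of 0.333, so no such test was used. Brightness depends on the probe, and signals of different genes are not compared. Signal falls with fewer expressing cells and with less RNA per cell alike, and these cannot be told apart.

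**Figure D1:**
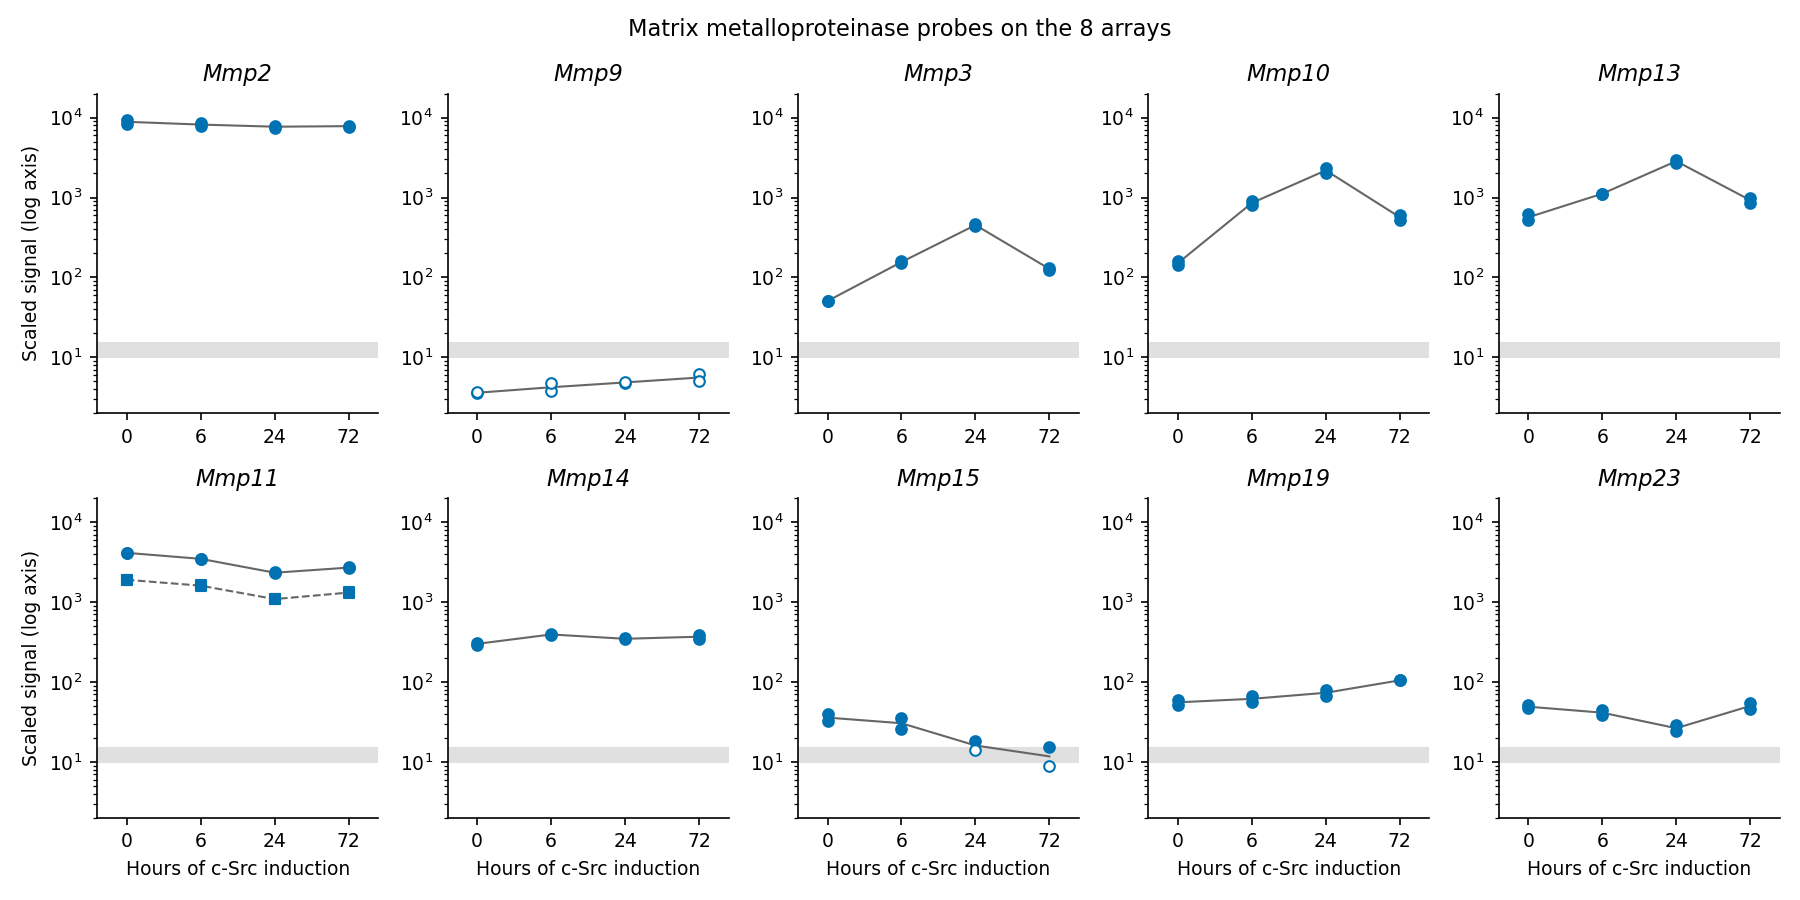
Scaled signal (log axis) of the 11 probes of 10 matrix metalloproteinase genes against hours of c-Src induction. Each point is 1 array, lines join the means of 2 arrays, open points were not well above background, and the grey band spans the lowest signals well above background on the 8 arrays (10 to 15). Squares with a dashed line are the second Mmp11 probe. Mmp3, Mmp10 and Mmp13 peak at 24 h, and Mmp9 stays below the band on all 8 arrays. Mmp15 lies in the band on 1 array at 24 h (14.2) and below it on 1 array at 72 h (8.84).

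The check of the labels came from Src, which was 26.9-fold above 0 h at 6 h, 23.8-fold at 24 h and 19.6-fold at 72 h. The single Csk probe was well above background on 0 of 8 arrays. Replicate arrays correlated across genes at 0.9964 to 0.9975, and 49.9% to 54.7% of spots were well above background, with 0 saturated. Of 12 fibroblast markers, 10 were measured and Thy1 was well above background on 0 of 8 arrays. Of these 10, 1 rose and 0 fell at 6 h, 2 rose and 5 fell at 24 h, and 2 rose and 8 fell at 72 h. Over all tested genes 17.6%, 41.5% and 52% were called at these times, in either direction. The markers' summed signal ran from 288000 to 316000 at 0 and 6 h, from 267000 to 277000 at 24 h and stood at 243000 on both arrays at 72 h. Their part in the changes below was not tested. Ptprc, Adgre1, Epcam, Cdh1 and Cdh5, which mark leukocytes, macrophages, epithelium and endothelium, were well above background on 0 of 8 arrays. Other markers on these lists, Csf1r, Cd14, Itgam, Cd3e, Pecam1, Kdr and 4 keratins, were well above background on 8 of 8 arrays. The lists therefore do not settle whether such cells were present. Summed signal of 4 measured epithelial markers of 8, all of them keratins, was 1220 to 1330 at 0 and 6 h, 1590 and 1870 at 24 h, and 1870 to 1920 at 72 h. That of 4 measured chondrocyte and osteoblast markers of 8, a cell type that makes Mmp13, was 741 to 763 at 0 h, 794 to 870 at 6 h, 639 to 711 at 24 h and 391 to 418 at 72 h, and Col10a1 and Ibsp were not well above background on the arrays. At 24 h, when Mmp13 was highest, 1 of these 4 rose and 3 fell. The 1 that rose was Sox9, with a log2 difference from 0 h of 3.20 (adjusted p = 3.54e-05). Of 5 measured macrophage and leukocyte markers, 2 rose at 6 h, 3 at 24 h and 2 at 72 h, and 0 fell at each time (median log2 difference 0.18, 0.30 and 0.22). Their sum was 6390 to 7080 over the 8 arrays, and that of 4 endothelial markers 858 to 947.

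Among the gelatinases, which cleave denatured collagen and basement membrane collagen, Mmp2 was bright throughout. Its probe (chr8:95376840-95376899, mm9) read 9320 and 8410 at 0 h, 8450 and 7900 at 6 h, 7910 and 7470 at 24 h, and 7930 and 7690 at 72 h. The 0 h arrays were the highest group mean, they overlapped the 6 h arrays, and they lay above the arrays of 24 and 72 h. Against 0 h, Mmp2 differed on the log2 scale by -0.12 at 6 h, -0.20 at 24 h and -0.18 at 72 h (SE 0.07 each), with adjusted p of 0.314, 0.0658 and 0.0777. The 24 h interval ran from -0.38 to -0.03 before adjustment for many genes, so a small fall is within the range the arrays allow. The call depended on settings, since quantile normalization gave -0.31 at 24 h (adjusted p = 0.0295) and -0.27 at 72 h (0.0368). Leaving out the second 0 h array gave -0.28 (0.0483) and -0.25 (0.0487), and median scaling gave a difference of 0.00 at 72 h.

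Mmp9, the other gelatinase, has a probe (chr2:164780620-164780679, mm9) that is printed in 10 spots on each array. On all 8 arrays none of these spots rose well above background. The mean scaled signal was 3.57 and 3.65 at 0 h, 3.78 and 4.73 at 6 h, 4.76 and 4.96 at 24 h, and 6.21 and 5.04 at 72 h. The lowest signal well above background on an array was 10 to 15, so all 8 values lie below what the arrays measured as signal. Mmp9 was left out of the test for that reason, and no fold is given for it. Without the filter on dim probes its log2 difference at 72 h was 0.63 (SE 0.15, adjusted p = 0.0393), a difference between values at background. The remaining 9 genes were measured on every array of at least 1 time.

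Stromelysins 1 and 2 cleave many matrix proteins and activate other proenzymes of the family, and both of them rose. Mmp10 (stromelysin 2, chr9:7510011-7510070, mm9) read 142 and 161 at 0 h, 812 and 898 at 6 h, 2330 and 2050 at 24 h, and 529 and 608 at 72 h. No arrays of different times overlapped, and the order was 24 h, 6 h, 72 h and 0 h, with every neighbouring pair of times called. The log2 difference from 0 h was 2.50 at 6 h, 3.85 at 24 h and 1.91 at 72 h (SE 0.11), with adjusted p of 0.000308, 4.56e-05 and 0.000116. Ranked by rise from 0 h among 20839 genes, Mmp10 was number 31 at 6 h, 18 at 24 h and 119 at 72 h. It rose by 1.36 on the log2 scale between 6 and 24 h (adjusted p = 0.00156), and fell by 1.95 on the log2 scale between 24 and 72 h (adjusted p = 0.00134). At 72 h it was still 3.75-fold above 0 h, and 0.59 on the log2 scale under its 6 h value (log2 difference -0.59, adjusted p = 0.00839).

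Mmp3 (stromelysin 1, chr9:7455751-7455810, mm9) read 50.4 and 51.1 at 0 h, 150 and 162 at 6 h, 439 and 466 at 24 h, and 123 and 133 at 72 h. Here too the arrays of each time stood clear of those of every other time, in the order 24 h, 6 h, 72 h and 0 h. Against 0 h, the log2 difference of Mmp3 was 1.62 at 6 h, 3.15 at 24 h and 1.34 at 72 h (SE 0.07), with adjusted p of 0.000209, 2.18e-05 and 7.08e-05. It ranked 94, 33 and 315 among all genes by rise. From 24 to 72 h it fell by 1.82 on the log2 scale (adjusted p = 0.000728). The step from 6 to 72 h was small, -0.28 (adjusted p = 0.0173). It was not called with median scaling (-0.15, adjusted p = 0.148) or without the filter on dim probes (0.0727). Nor was it called without the second 6 h array (-0.22) or the first 72 h array (-0.23). Normexp background correction with its added offset gave smaller differences for this dim probe, 0.89, 2.08 and 0.68 at the 3 times, all called.

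Mmp13, collagenase 3, cuts fibrillar collagens and belongs to the same chromosome 9 cluster (chr9:7282762-7282821, mm9). It read 613 and 521 at 0 h, 1120 and 1110 at 6 h, 2970 and 2730 at 24 h, and 864 and 994 at 72 h. The times did not overlap, and the 24 h arrays were the highest and the 0 h arrays the lowest. Its log2 difference from 0 h was 0.99 at 6 h, 2.33 at 24 h and 0.71 at 72 h (SE 0.11), with adjusted p of 0.00451, 0.000136 and 0.00272. Of its neighbours in the order of times, 6 h and 72 h did not differ beyond the test (-0.27 from 6 to 72 h, 95% interval -0.54 to -0.01, adjusted p = 0.0853). From 24 to 72 h Mmp13 fell by 1.62 on the log2 scale (adjusted p = 0.00184).

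The 3 probes are of different transcripts and share little sequence with each other. Probes were compared with probes and not with whole transcripts, so a match of a probe to another Mmp transcript was not tested. The longest run of letters common to the Mmp3 and Mmp10 probes was 5 of 60 bases, and the longest between any probe of the 10 genes and that of another Mmp gene was 10 bases, between Mmp13 and Mmp8. Within each slide column, where each time has 1 array, the rise at 24 h was 4.03 and 3.67 for Mmp10, 3.12 and 3.19 for Mmp3, and 2.28 and 2.39 for Mmp13 on the log2 scale. Every alternative setting tried kept the calls of these 3 genes against 0 h, from 6 to 24 h and from 24 to 72 h.

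**Figure D2:**
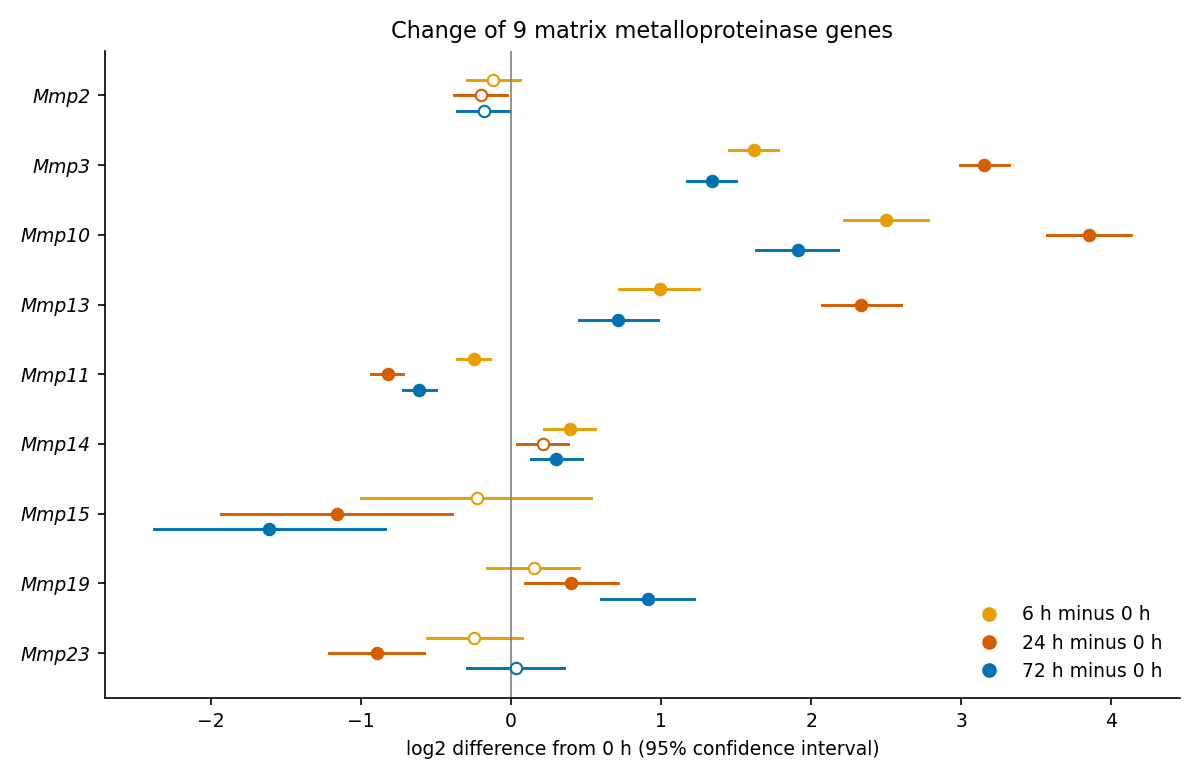
Log2 difference from 0 h of the 9 measured matrix metalloproteinase genes at 6, 24 and 72 h of c-Src induction. Points are differences of the means of 2 arrays, bars are unadjusted 95% confidence intervals from limma, filled points have an adjusted p under 0.05, and Mmp9 is not shown because it was not well above background. Mmp10, Mmp3 and Mmp13 lie furthest to the right, at 3.85, 3.15 and 2.33 at 24 h, while Mmp11, Mmp15 and Mmp23 lie to the left of 0 at 24 h.

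Mmp11 (stromelysin 3) is activated inside the cell by furin, and cleaves matrix proteins only weakly. Its brighter probe (chr10:75386024-75386083, mm9, minus strand) read 4110 and 4150 at 0 h, 3500 and 3450 at 6 h, 2280 and 2380 at 24 h, and 2670 and 2730 at 72 h. The times did not overlap, with 0 h the highest and 24 h the lowest. The log2 difference from 0 h was -0.25 at 6 h, -0.82 at 24 h and -0.61 at 72 h (SE 0.04), with adjusted p of 0.0175, 0.000175 and 0.000208. The second probe (chr10:75386209-75386268) gave -0.25, -0.80 and -0.53 in the fit over all probes, and 0.27 from 24 to 72 h (adjusted p = 0.0137). From 24 to 72 h the brighter probe rose by 0.21 (adjusted p = 0.0240). Without the filter on dim probes, neither the 6 h fall (0.119) nor this rise (0.139) was called. A fit to only the arrays of the 2 times compared also called neither (0.0603 and 0.103). The 2 smallest of these changes were the least stable: the 6 h fall had an adjusted p of 0.0725 and 0.0808 without the first or second 0 h array, 0.0777 and 0.0998 without the first or second 6 h array, and 0.144 with median scaling. The rise after 24 h was lost without either 6 h array (0.053 each), the first 24 h array (0.0899), or the first or second 72 h array (0.0936 and 0.121), and with median scaling (0.0756).

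Mmp14, a membrane-type enzyme that activates proMmp2 at the cell surface, changed little. Its probe (chr14:55058775-55058834, mm9) read 290 and 311 at 0 h, 390 and 397 at 6 h, 342 and 353 at 24 h, and 349 and 390 at 72 h. All 6 induced arrays lay above both 0 h arrays, and the arrays of 6 and 72 h overlapped near 390. Mmp14 differed from 0 h on the log2 scale by 0.39 at 6 h (adjusted p = 0.0181), 0.21 at 24 h (0.0579, not called) and 0.30 at 72 h (0.0149), each with SE 0.07. No step between the later times was called. At 6 h the call was lost without any 1 of the 4 arrays compared, at adjusted p of 0.0846 and 0.0519 without the first or second 0 h array and 0.0765 and 0.0966 without the first or second 6 h array. At 72 h it was lost without the filter on dim probes (adjusted p = 0.0602) and in a fit to only the arrays compared (0.053). It was also lost there without the first 0 h array (difference 0.25) or the second 72 h array (0.22). The 6 h call too was lost without the filter (0.0939). Median scaling raised the 24 h difference to 0.36 (adjusted p = 0.0100) and the 72 h difference to 0.48.

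Mmp15, a second membrane-type enzyme, fell. Its probe (chr8:97897703-97897762, mm9) read 32.8 and 39.3 at 0 h, 26 and 35.8 at 6 h, 18.2 and 14.2 at 24 h, and 15.6 and 8.84 at 72 h. Only 1 of 2 arrays was well above background at 24 h and 1 of 2 at 72 h, and all 4 arrays of these times lay below the 0 h arrays. The log2 difference from 0 h was -0.23 at 6 h (adjusted p = 0.648), -1.16 at 24 h (0.0294) and -1.61 at 72 h (0.00735), with SE 0.31, the widest of the 9 genes. The order of the later times was not settled, since 24 and 72 h differed by -0.45 (adjusted p = 0.346) with overlapping arrays. The 24 h call was lost without the filter on dim probes (adjusted p = 0.0837) and with quantile normalization (0.0522). It was also lost without the first or second 0 h array (differences -1.29 and -1.03) or the first or second 24 h array (-1.34 and -0.98). The 72 h call held in every setting that measured the gene. With the normexp offset the falls were -0.33 and -0.42, both called.

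Mmp23, a membrane enzyme cut loose by furin-type proteases, dipped at 24 h. Its probe (chr4:155025377-155025436, mm9, minus strand) read 46.8 and 51.6 at 0 h, 44.2 and 38.7 at 6 h, 24.2 and 28.9 at 24 h, and 54 and 46.6 at 72 h. The 24 h arrays were below all others, and the 72 h arrays overlapped those of 0 h. The log2 difference from 0 h was -0.25 at 6 h (SE 0.13, adjusted p = 0.242), -0.89 at 24 h (0.00330) and 0.03 at 72 h (0.865, 95% interval -0.29 to 0.35). It fell by 0.65 on the log2 scale between 6 and 24 h (adjusted p = 0.0178), and rose by 0.92 between 24 and 72 h (0.00885). The call from 6 to 24 h was lost without the filter on dim probes (adjusted p = 0.069) and in a fit to only the arrays compared (0.0547). It was also lost without the first 6 h array (difference -0.55) or the first 24 h array (-0.52). The call from 24 to 72 h was lost without the first 72 h array (0.82). With the normexp offset the 24 h fall from 0 h was -0.33, still called.

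Mmp19, a secreted enzyme with basement membrane substrates, rose, with its highest group mean at 72 h. Its probe (chr10:128236221-128236280, mm9) read 52.2 and 59.5 at 0 h, 67 and 56.7 at 6 h, 67.1 and 80.2 at 24 h, and 105 on both arrays at 72 h. The 72 h arrays lay above all others, and those of 0 and 6 h overlapped. For Mmp19 the log2 difference from 0 h was 0.15 at 6 h (SE 0.12, adjusted p = 0.471), 0.40 at 24 h (0.0488) and 0.91 at 72 h (0.00197), with a step of 0.51 from 24 to 72 h (0.0375). The 24 h call was at the threshold and was lost in 10 of 20 alternatives. Among them were no filter on dim probes (adjusted p = 0.136), a fit to only the arrays compared (0.0922) and the deposited value table (0.0507). It was also lost without the first 0 h array (difference 0.30), the second 0 h array (0.49), the second 24 h array (0.27) or either 72 h array (0.40 each). The step from 24 to 72 h was lost in 8 of 20, among them no filter on dim probes (0.132) and a fit to only the arrays compared (0.0714). It was also lost without either 0 h array (difference 0.51 each), the first 24 h array (0.39) or either 72 h array (0.51 each). With the replicate number as a block neither was called (0.0701 at 24 h and 0.0542 for the step). The 72 h rise of Mmp19 over 0 h was called in every setting tried, at 0.51 with the normexp offset.

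Counted together, 4 of the 9 genes rose and 1 fell at 6 h, against 10.3% of all tested genes that rose and 7.24% that fell (17.6% either way). At 24 h 4 rose and 3 fell, against 21.4% and 20.1% (41.5% either way). At 72 h 5 rose and 2 fell, against 27.5% and 24.6% (52% either way). Because so many genes on the array were called, the number of calls among 9 genes says little by itself. Changes of at least 2-fold that were called came to 2 of 9 at 6 h, 4 of 9 at 24 h and 3 of 9 at 72 h, against 1.08%, 4.77% and 7.88% of all genes. Mmp15 is among the 4 and the 3, with 1 of 2 arrays well above background at each of these times. With the normexp offset its falls were under 2-fold (-0.33 and -0.42). The median log2 difference of the 9 was 0.15, 0.21 and 0.30 at the 3 times, against 0.00, -0.02 and 0.00 over all genes. These comparisons share the 0 h arrays. The 10 genes were chosen with earlier results of these data known. Their shares and medians, here and for the steps between times, therefore describe the set and are not a test. Of the 3 other Mmp genes measured, 0 rose and 1 fell at 6 h, 1 rose and 1 fell at 24 h, and 0 rose and 2 fell at 72 h. Arrays of the later time and of 0 h did not overlap for 6 of 9 genes at 6 h, 9 of 9 at 24 h and 8 of 9 at 72 h, where all genes gave 62.7%, 69.9% and 78.1%.

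Between 6 and 24 h, Mmp3, Mmp10 and Mmp13 rose while Mmp11 and Mmp23 fell, 5 of 9 genes against 26.2% of all genes (12.6% rose and 13.6% fell). The 3 rises were of at least 2-fold, and 2.28% of all genes were called with a change of that size in either direction. Arrays did not overlap for 8 of 9 genes against 65.1% of all. Between 24 and 72 h, 3 rose (Mmp11, Mmp19 and Mmp23) and 3 fell (Mmp3, Mmp10 and Mmp13), against 10.8% and 10.9% of all genes (21.7% either way). The 3 falls were of at least 2-fold, and 1.41% of all genes were called with a change of that size in either direction, while 6 of 9 genes did not overlap against 64.9% of all. Both steps use the 24 h arrays, so opposite directions in them are not independent. Mmp19 was not called between 6 and 24 h (0.25, adjusted p = 0.197). In the comparison of 72 with 6 h, added after the data were seen, Mmp19 rose by 0.77 and Mmp3, Mmp10, Mmp11 and Mmp15 fell, against 22.9% and 22.4% of all genes (45.3% either way). Only the fall of Mmp15 (-1.38, adjusted p = 0.0153) was called at 2-fold or more, against 5.88% of all genes. Its signal at 72 h was well above background on 1 of 2 arrays, and with the normexp offset the fall was -0.38. In this comparison 7 of 9 genes did not overlap against 76.4%. Without the second 6 h array 3 genes were called there, and without the first 72 h array 3 were called between 24 and 72 h.

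Mmp13, Mmp3 and Mmp10 lie in a run of 10 Mmp genes on chromosome 9, which spans 415 kb between the outermost probes (chr9:7282762-7697700, mm9). The Mmp3 probe is 173 kb from that of Mmp13 and 54 kb from that of Mmp10. Of the other 7 genes of the run, Mmp8 alone was measured, and Mmp12, Mmp1b, Mmp1a, Mmp27, Mmp20 and Mmp7 were well above background on 0 of 8 arrays. Mmp8, neutrophil collagenase, read 29.2 and 26 at 0 h, 27.4 and 37.2 at 6 h, 50.2 and 49.1 at 24 h, and 12 and 11.5 at 72 h. It was highest at 24 h and, unlike the 3 others, lower at 72 h than at 0 h. The log2 difference of Mmp8 from 0 h was 0.85 at 24 h (SE 0.15, adjusted p = 0.00641) and -1.23 at 72 h (0.00118, with 1 of 2 arrays well above background). With the normexp offset these were 0.31 and -0.27, both called.

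Genes that flank the run changed less from 0 h than Mmp10, Mmp3 and Mmp13. Within 500 kb on either side, the largest called difference from 0 h at 24 h was 0.54 (Dcun1d5, adjusted p = 0.00141), followed by 0.43 for 2610019N06Rik, -0.36 for Birc2 and 0.33 for Tmem123. Yap1, a transcriptional coactivator of the Hippo pathway, was not called at any time, with -0.03 at 24 h (SE 0.19). Cfap300, Cep126 and Dync2h1 were not called at 24 h. At 72 h Dync2h1 was called against 0 h (0.45, adjusted p = 0.0266), as were Dcun1d5 (0.45, 0.00177) and Tmem123 (0.32, 0.00339).

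**Figure D3:**
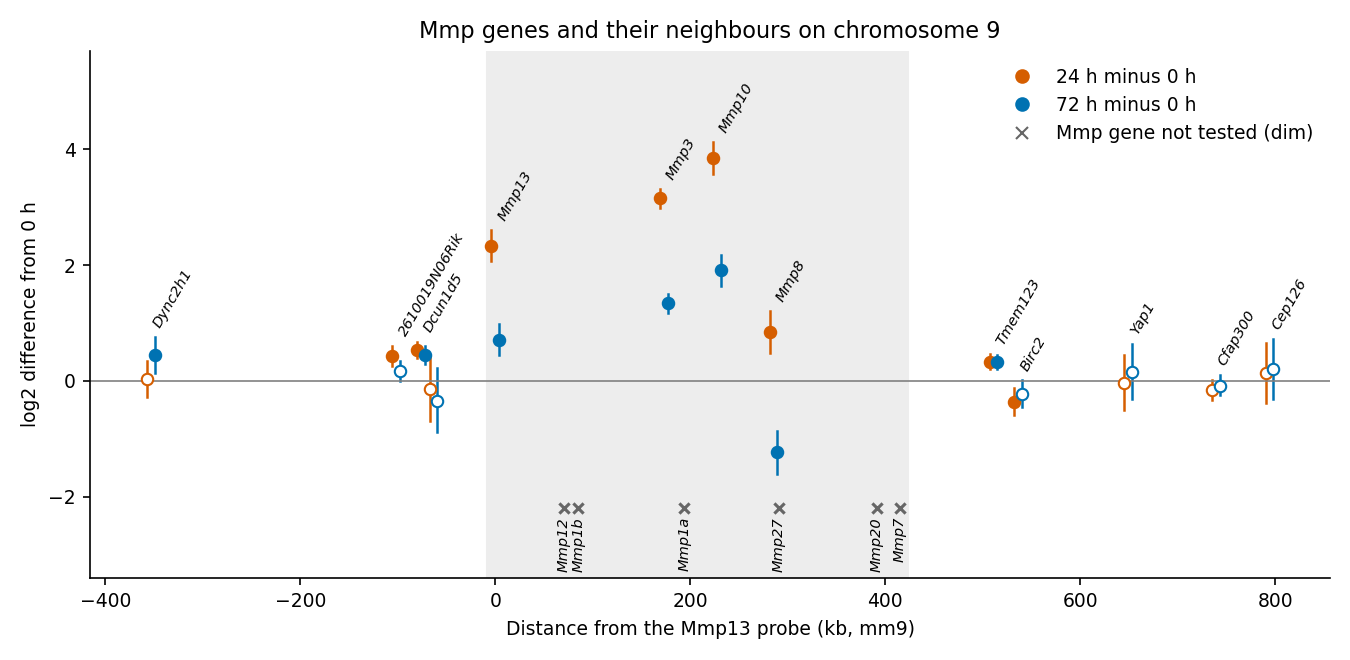
Log2 difference from 0 h at 24 h and 72 h of induction for genes in and around the run of Mmp genes on chromosome 9, by distance of the probe from that of Mmp13 in kb. Bars are unadjusted 95% confidence intervals, filled points have an adjusted p under 0.05, crosses mark Mmp genes not well above background (placed below the data, with no value), the shaded area is the run, and 1 unlabelled flanking probe has no gene name. At 24 h the points of Mmp10, Mmp3, Mmp13 and Mmp8 (3.85, 3.15, 2.33 and 0.85) lie above those of all flanking genes, of which Dcun1d5 is the highest at 0.54. The intervals of Mmp8 (0.49 to 1.21) and Dcun1d5 (0.39 to 0.68) overlap, and with normexp correction, not drawn, Mmp8 was at 0.31.

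Outside the 10 genes, 3 of 13 other Mmp genes were measured: Mmp8, Mmp17 and Mmp24. Mmp17, a membrane-type enzyme held by a lipid anchor, read 229 and 221 at 0 h, 185 and 181 at 6 h, 112 and 113 at 24 h, and 84.6 and 89.3 at 72 h. The times did not overlap and the signal was lower at each later time. The log2 difference of Mmp17 from 0 h was -0.30, -1.0 and -1.37 (SE 0.05), with adjusted p of 0.0141, 0.000148 and 4.03e-05. With median scaling the 6 h difference was -0.24 and not called (adjusted p = 0.137), and with normexp correction the 72 h difference was -0.90, still called. Thus Mmp11, Mmp15 and Mmp17 fell against 0 h at both 24 and 72 h.

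By the distance between values centred on 0 h over the 8 arrays, the gene most like Mmp10 was Sox9, at a root mean square distance of 0.39 on the log2 scale. Sox9, a transcription factor of cartilage and progenitor cells, had log2 differences of 2.78, 3.20 and 2.21 at 6, 24 and 72 h. Sprr2e, at 0.57 from Mmp10, has near-identical family members and an uncertain value, and Cyth4 lay at 0.41 from Mmp13. These 3 genes were well above background on both arrays of each time compared. The other near profiles rest partly on signals at background, and their distances are given without an order. Ttll11, near both Mmp10 (0.62) and Mmp3 (0.49), was well above background on 0 of 2 arrays at 0 h and at 72 h and on 1 of 2 at 6 h. An interval probe without a gene name, 0.32 from Mmp3, was so on 0 of 2 arrays at 0 and at 6 h and 1 of 2 at 72 h, and Tmem179, 0.41 from Mmp3, on 1 of 2 at 0 h. Afp, 0.40 from Mmp13, was well above background on 0 of 2 arrays at 0 and at 6 h and 1 of 2 at 72 h, and Sprr2k, 0.35 from Mmp13 and also with near-identical copies, on 1 of 2 at 0 h.

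Many AP-1 and Ets factors, the kinds known to act on promoters of this family, rose early. Of 16 measured factors of 18 listed, 11 rose and 0 fell at 6 h, 10 rose and 1 fell at 24 h, and 6 rose and 2 fell at 72 h, with medians of 0.59, 0.35 and 0.19. Over all genes 10.3% rose and 7.24% fell at 6 h, 21.4% and 20.1% at 24 h, and 27.5% and 24.6% at 72 h, so that the 8 of 16 called at 72 h lie near the 52% of all genes. Fosl1, which encodes Fra-1, read 60.6 and 74.3 at 0 h, 958 and 976 at 6 h, 1030 and 1080 at 24 h, and 1050 and 995 at 72 h. All 6 induced arrays were far above both 0 h arrays, and the later times did not differ by test. The log2 difference of Fosl1 was 3.85, 3.97 and 3.93 (SE 0.10, adjusted p = 6.83e-05, 3.89e-05 and 2.16e-05). With normexp correction it was smaller, at 3.01, 3.12 and 3.08, all called.

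Fos itself was brief, at 60.4 and 79.6 at 0 h, 399 and 435 at 6 h, 98 and 99.5 at 24 h, and 46.1 and 48.8 at 72 h. It rose by 2.59 at 6 h and by 0.51 at 24 h, and at 72 h stood below 0 h (-0.55), with adjusted p of 0.000422, 0.0262 and 0.0166. With normexp correction these differences were 1.85, 0.28 and -0.25, all called. Etv4, an Ets factor also called PEA3, read 709 and 764 at 0 h, 3140 and 3350 at 6 h, 8030 and 9600 at 24 h, and 7890 and 8180 at 72 h. Its log2 difference was 2.14, 3.58 and 3.45 (SE 0.10, all called). From 24 to 72 h, when Mmp10, Mmp3 and Mmp13 fell by 1.95, 1.82 and 1.62 on the log2 scale, Fosl1 changed by -0.05 (adjusted p = 0.773) and Etv4 by -0.13 (0.382), neither of them called, and Fos fell by 1.06 on the log2 scale (0.00682). These 3 factors were named for their difference from 0 h, and over the list of 16 that step had 2 rises, 5 falls and a median of -0.10, against 10.8% and 10.9% of all genes.

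Inhibitors of the family went in both directions. Of 8 listed, 5 were measured: 1 rose and 1 fell at 6 h, 2 rose and 2 fell at 24 h, and 0 rose and 2 fell at 72 h. Of all genes 17.6%, 41.5% and 52% were called at these times, and the 2 of 5 at 72 h are no more than that share. Timp3, which stays bound to matrix, read 27600 and 27200 at 0 h, 24500 and 24400 at 6 h, 13300 and 12900 at 24 h, and 9470 and 9700 at 72 h. The arrays of each time lay below those of every earlier time. The log2 difference of Timp3 was -0.17, -1.06 and -1.52 (SE 0.04), with adjusted p of 0.0469, 9.78e-05 and 2.42e-05, and the 6 h value was not called with median scaling (-0.12, 0.446) and was -0.26 with quantile normalization.

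Timp1 was the inhibitor that rose at 6 h, from 10500 and 10800 to 15400 and 16600, and stood at 14900 and 17300 at 24 h and 11400 and 11500 at 72 h. The log2 difference of Timp1 was 0.58 at 6 h (adjusted p = 0.00935), 0.59 at 24 h (0.00305) and 0.11 at 72 h (0.322), where median scaling gave 0.29 (0.0170). Timp2, whose protein links Mmp14 to proMmp2, differed by 0.17 at 24 h (0.0330), which was not called with normexp correction (0.08, 0.411) or quantile normalization (0.10, 0.224), while median scaling also called 72 h (0.27, 0.0366). Reck, a membrane-anchored inhibitor, fell by 0.63 on the log2 scale at 24 h (0.00276) and by 0.41 at 72 h (0.00984), the latter not called with median scaling (-0.23, 0.139). With normexp correction Reck differed by -0.35 and -0.21, both called. Timp4 was called at no time, at 0.68, 0.32 and 0.22 (SE 0.37).

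**Figure D4:**
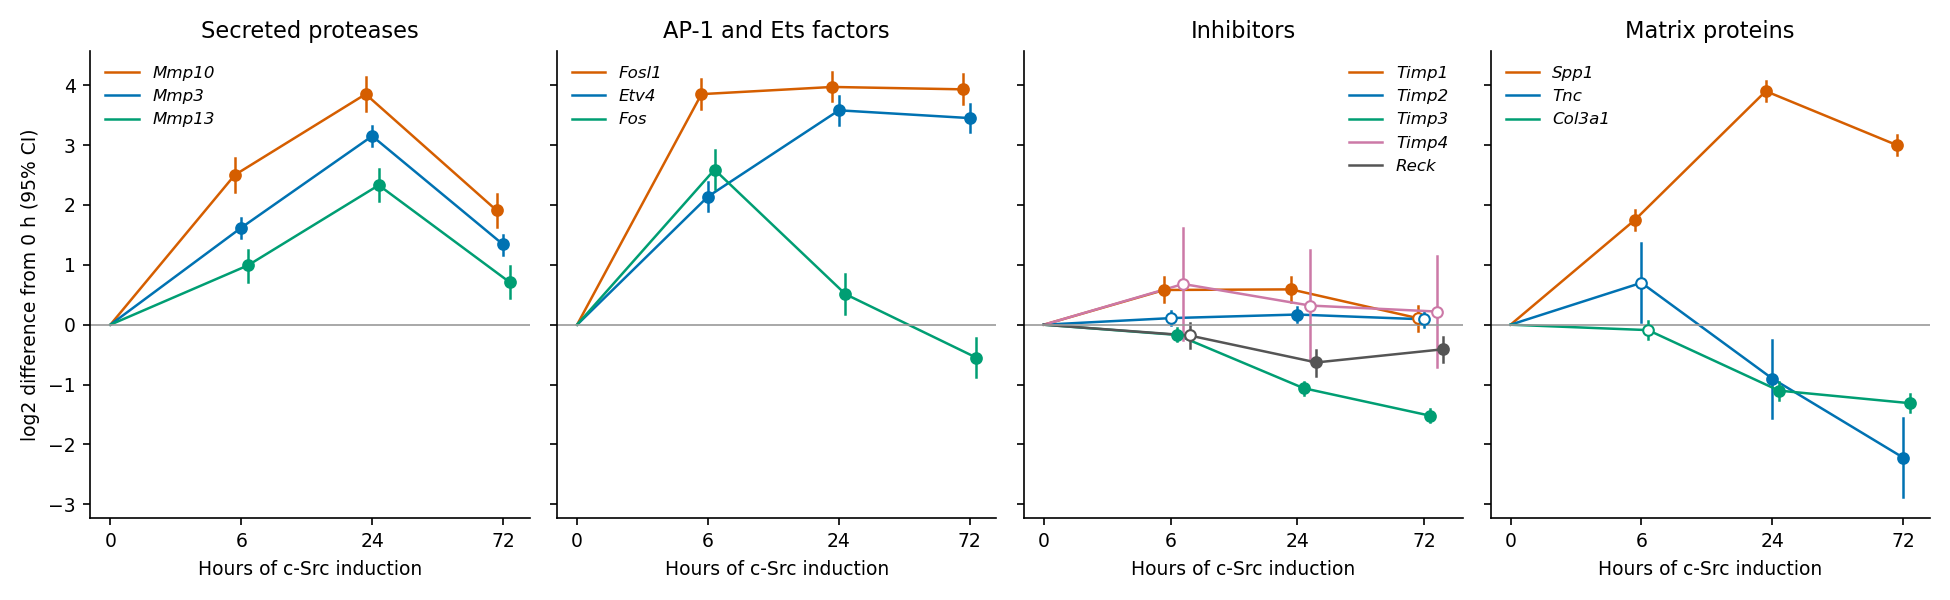
Log2 difference from 0 h at 6, 24 and 72 h for 3 secreted matrix metalloproteinases, 3 AP-1 and Ets factors, 5 inhibitors and 3 matrix proteins, each set at 0 at 0 h. Points are differences of the means of 2 arrays, bars are unadjusted 95% confidence intervals, and filled points have an adjusted p under 0.05. Mmp10, Mmp3 and Mmp13 decline after 24 h, Fosl1 and Etv4 stay near 3.93 and 3.45 at 72 h, and Timp3 declines to -1.52.

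Genes for activation and cell surface partners were also mixed. Of 15 measured of 20 listed, 5 rose and 3 fell at 6 h, 7 rose and 4 fell at 24 h, and 4 rose and 7 fell at 72 h, where 17.6%, 41.5% and 52% of all genes were called in either direction. Plaur, the receptor of urokinase, a protease that starts the plasmin cascade upstream of proenzyme activation, read 1870 and 1920 at 0 h, 5200 and 5050 at 6 h, 6000 and 6670 at 24 h, and 7630 and 7510 at 72 h. Its log2 difference was 1.43, 1.74 and 2.0 (SE 0.06, all called), while Plau, urokinase itself, was well above background on 0 of 8 arrays. Plat, tissue plasminogen activator, differed by 0.37, -0.19 and -1.06, of which only the last was called (adjusted p = 0.000793). Tpsb2, a mast cell tryptase with a near-identical copy that makes its value uncertain, fell by 1.14, 1.19 and 0.95 on the log2 scale (SE 0.24, adjusted p = 0.0296, 0.0115 and 0.0209), and with normexp correction the first 2 differences were -0.71 and -0.76, both called.

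Of 20 measured matrix substrate genes of 24 listed, 2 rose and 0 fell at 6 h, 5 rose and 9 fell at 24 h, and 5 rose and 11 fell at 72 h. Col1a1, Col1a2, Col3a1, Fn1 and Dcn are also on the list of fibroblast markers, so the counts of these lists are not independent. Over all genes 10.3% rose and 7.24% fell at 6 h, 21.4% and 20.1% at 24 h, and 27.5% and 24.6% at 72 h. The rises of the list lie near these shares, and its falls at 24 and 72 h above them. Normexp correction called 4 at 6 h. Col3a1, a fibrillar collagen chain, read 30500 and 31100 at 0 h, 29600 and 28300 at 6 h, 14800 and 14000 at 24 h, and 11900 and 12900 at 72 h. Its log2 difference was -0.09 at 6 h (not called), -1.10 at 24 h and -1.31 at 72 h (SE 0.06, adjusted p = 0.000188 and 6.2e-05 for the last 2). Spp1, osteopontin, a secreted adhesion protein, went the other way, from 1900 and 1690 to 26700 and 26800 at 24 h and 14800 and 14000 at 72 h. The log2 difference of Spp1 was 1.75, 3.90 and 3.00 (SE 0.07, all called), with a fall of 0.89 on the log2 scale between 24 and 72 h (adjusted p = 0.00269). Tnc, tenascin C, was at -2.22 at 72 h (SE 0.27, adjusted p = 0.00120, 1 of 2 arrays well above background), and its 24 h fall (-0.90, 0.0398) was not called with quantile normalization (-0.82, 0.0558) or median scaling (-0.75, 0.0594). Normexp correction gave -0.37 at 24 h and -0.67 at 72 h for Tnc, both called.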

How the data were processed

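Total RNA was labelled with Cy3 and hybridised to 1-colour Agilent 8x60K arrays, per the labels' protocols. The deposited files hold the processed signal per spot, a linear intensity, from Feature Extraction 10.5.1.1 per the file headers (10.7.3.1 per the submitters' processing notes), on mm9. All arrays lay on 1 slide, with replicate number as slide column. From each log2 signal the array's 75th percentile over 59305 spots other than controls was subtracted. Outlier spots were removed and spots of a probe averaged. A probe was kept if both arrays of some time had it well above background (28609 of 55681), and the probe with the highest mean stood for its gene (20839 genes). Names came from RefSeq accessions for 26582 probes, symbols for 2602 and synonyms for 492, and 26005 kept the file's name. One mean per time was fitted with limma 3.58.1 (R 4.3.3), with 4 residual degrees of freedom and a prior of 1.7. The fit was tested on simulated data. Figures used Python with matplotlib.

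The genes and lists were chosen with earlier results of these data known. The naming rule takes all 10 genes, Src, Csk, every Timp and Reck, up to 3 called genes per list with the largest difference from 0 h, and the 3 genes nearest in profile to each of the 3 most changed genes. Genes flanking the chromosome 9 run and Plau were chosen after their values were seen. Alternatives covered scaling, background correction, filters, probe choice, a floor, the prior, the arrays fitted, a replicate block, each array left out, and the deposited value table.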

Additional observations from a re-analysis of the deposited data

How the results depend on the processing

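Over 54 differences of the 9 genes, 20 alternatives gave 1074 values, of which 986 kept direction and side of the threshold, 58 lost a call, 23 gained one, 7 changed sign with no call on either side and 0 reversed a call. Mmp15 gave no value where probes had to be well above background on all arrays. With 2 arrays a time, leaving 1 out assumes that the lone array varies like the others.

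The number of genes called of the 9 ranged, with each array left out in turn, from 3 to 5 at 6 h, 5 to 7 at 24 h and 6 to 8 at 72 h against 0 h, 4 to 6 from 6 to 24 h, 3 to 6 from 24 to 72 h, and 3 to 5 from 6 to 72 h. Over all genes these ranges were 1218 to 3592, 6637 to 7902, 8176 to 10958, 2628 to 4655, 1082 to 3919 and 6624 to 9444, against 3662, 8648, 10846, 5453, 4512 and 9430. Without the filter on dim probes, which tested 36095 genes, 3 Mmp genes were called at 6 h, and over all genes 871 at 6 h, 5600 at 24 h, 2044 from 6 to 24 h, 929 from 24 to 72 h and 6251 from 6 to 72 h. Fits to only the arrays compared called 1816 genes at 6 h, 2685 from 6 to 24 h and 1080 from 24 to 72 h. Median scaling called 2284 at 6 h and 2627 from 24 to 72 h, moved the median of all genes to 0.06, 0.13 and 0.18 at 6, 24 and 72 h, and moved the share of calls against 0 h that were rises from 58.8%, 51.5% and 52.7% to 76.9%, 74.7% and 75.1%. Quantile normalization gave 48.7% at 6 h.

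Deviations of same-numbered arrays from their time's mean correlated at 0.056 to 0.17 across genes, so the numbers were not taken to pair the arrays, although each correlation was above 0. With the replicate number as a block, 5, 8 and 8 of the 9 genes were called at 6, 24 and 72 h, 5 from 6 to 24 h, 5 from 24 to 72 h and 5 from 6 to 72 h, and over all genes 4071, 9208, 11399, 5896, 5010 and 9971. Mmp14 at 24 h and Mmp2 at 24 and 72 h gained a call under the block (adjusted p 0.0273, 0.0195 and 0.0224), and Mmp19 lost its calls at 24 h and from 24 to 72 h (0.0701 and 0.0542).

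Signals near the background limit of 10 to 15 (Mmp15 at 24 and 72 h, Mmp8 at 72 h) limit the precision of their differences, and the number of arrays limits that of all.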
